A study of Mus musculus with 12 samples.

Results

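The genes described here are 10 of the 24421 gene symbols in a count table of the transfections of a mouse cholangiocyte line. They are Appl2, Adcy3, Greb1l, Ccpg1, Trim44, Zc3h18, Smtn, Taf5, Slx1b and Plcg1. The genes were chosen by their small unadjusted p in S45Y against eGFP, a comparison in which no gene passed adjustment for multiple tests. The question is therefore whether si-bcatenin against siCTL, a comparison with its own libraries and its own controls, shows the reverse.

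Bulk RNA-seq was performed on 12 libraries of small cholangiocyte cells (SMCCs), an immortalized line of the epithelial cells that line bile ducts. For activation, SMCCs were transfected with a plasmid for S45Y or for eGFP, a fluorescent protein that served as the control, and taken after 48 hr (3 libraries each). For silencing, SMCCs received an siRNA against β-catenin (si-bcatenin) or a control siRNA (siCTL), and were taken after 24 hr (3 libraries each). All groups share the cell line, and the labels do not state whether the 3 libraries of a group came from separate cultures, so p-values measure the spread between these libraries, which may be technical.

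β-Catenin, encoded by Ctnnb1, acts both at cell junctions and as the transcriptional arm of Wnt signaling. Without a Wnt signal it is phosphorylated near its N terminus and degraded. S45Y replaces a serine in that region and yields a stable protein, which enters the nucleus and works with TCF/LEF factors at their target genes. In the biliary epithelium this pathway is known for its part in injury and repair. The 10 genes are not a pathway. Appl2, Adcy3 and Plcg1 act in signaling at membranes, Taf5, Zc3h18, Slx1b and Greb1l in the nucleus, and Ccpg1, Trim44 and Smtn in the endoplasmic reticulum, in protein turnover and on the actin skeleton.

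Libraries held 91468 to 326686 counts, with 10 or more counts for 1510 to 3846 genes. The plasmid libraries were the shallower ones, with 91468 to 122304 counts against 221767 to 326686 in the siRNA libraries. Rn45s, a ribosomal RNA precursor, took 10.03 to 15.4% of the counts in the plasmid libraries against 1.61 to 5.49% in the siRNA libraries. Its share was also lower in si-bcatenin (1.61 to 2.44%) than in siCTL (3.64 to 5.49%) without overlap, whereas eGFP and S45Y overlapped. Ctnnb1 had 13, 38 and 28 counts in the siCTL libraries and 0, 11 and 3 in the si-bcatenin libraries, and was lower after silencing without overlap (log2 fold change −2.54, SE 0.55, edgeR adjusted p = 0.00491). In eGFP it had 6, 11 and 10 counts and in S45Y 11, 4 and 18, and these groups overlapped (log2 fold change 0.51, SE 0.55). Transfection reagent, nucleic acid, time and depth all differ between the siRNA and the plasmid libraries, so their parts in any difference between these pairs of groups cannot be told apart. Of 16 cholangiocyte markers, Krt18, Krt8, Spp1 and Krt19 were expressed, whereas Epcam, Cftr and Aqp1 were among those with no count in any library. The summed level of these markers was 990 to 1072 CPM (counts scaled to a common library total) in si-bcatenin, below the 1082 to 1485 CPM of siCTL, and 1579 to 2292 CPM in eGFP and 1842 to 2345 CPM in S45Y. The part of these differences in the results was not tested. Of 10 hepatocyte markers, 6 had no count in any library, Alb, the main one, among them, while Apob had 42, Hnf4a 35 and Fgb 23 counts in all. Their summed level was 76.4 to 114 CPM in S45Y, above the 9.18 to 37.9 CPM of eGFP without overlap, and it overlapped between siCTL (22.0 to 44.3 CPM) and si-bcatenin (28.5 to 75.2 CPM). The part of this difference in the S45Y values of the 10 genes was not tested. Of 8 leukocyte markers, 6 had no count, including Ptprc, which defines leukocytes, while Cd68 had 174 and Csf1r 55 counts, and the summed levels overlapped between the groups of each comparison. The summed fibroblast and endothelial markers overlapped in the same way.

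Promoter windows are shown because β-catenin reaches its target genes through TCF/LEF factors, which bind DNA close to some of them. RefSeq windows on GRCm38.p6, from 250 bases before to 50 bases after a start, were at hand for 9 of the 10 genes, 11 windows in all. The windows printed here run 5′ to 3′ on the strand of the gene, and were taken from the gene with the smallest p in the choosing comparison (Appl2), the gene whose window holds a match (Adcy3), and the gene with the largest difference towards lower levels (Slx1b). Capitals mark a match to a TCF/LEF motif, searched on both strands. The letters searched were CTTTGAA with adenines at its end, the variant CTTTGAT with a final thymine, and the variants CTTTGTA for a penultimate thymine and CTTTGTT for thymines at both places. The Appl2 window lies at chr10:83648615-83648914 on the minus strand, the Adcy3 window at chr12:4133147-4133446 on the plus strand, and the Slx1b window at chr7:126695734-126696033 on the minus strand.
Appl2: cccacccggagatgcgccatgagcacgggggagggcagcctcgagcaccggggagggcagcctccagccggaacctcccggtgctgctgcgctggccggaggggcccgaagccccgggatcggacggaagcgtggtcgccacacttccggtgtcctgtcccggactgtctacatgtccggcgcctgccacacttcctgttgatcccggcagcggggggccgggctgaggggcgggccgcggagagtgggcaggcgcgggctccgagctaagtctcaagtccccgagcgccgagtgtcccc
Adcy3: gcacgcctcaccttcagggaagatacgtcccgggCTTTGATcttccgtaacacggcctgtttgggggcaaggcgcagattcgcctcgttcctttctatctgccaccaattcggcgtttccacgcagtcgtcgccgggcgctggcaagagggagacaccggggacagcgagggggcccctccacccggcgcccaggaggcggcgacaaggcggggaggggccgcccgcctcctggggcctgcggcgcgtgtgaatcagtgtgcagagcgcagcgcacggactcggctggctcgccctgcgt
Slx1b: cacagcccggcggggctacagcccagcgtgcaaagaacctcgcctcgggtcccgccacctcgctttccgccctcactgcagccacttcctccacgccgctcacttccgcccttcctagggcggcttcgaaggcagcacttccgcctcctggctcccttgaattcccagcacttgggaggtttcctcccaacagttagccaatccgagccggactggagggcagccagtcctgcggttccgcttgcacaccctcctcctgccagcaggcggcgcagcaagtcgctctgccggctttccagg
The single match, CTTTGAT in the Adcy3 window, began at position −216 from the start, and the other 10 windows held none of these letters. A match to any of these motifs occurred in 16.9% of all 32851 promoter windows and in 11.3% of the 3367 windows of genes tested in silencing. The GC content was 73.0% for Appl2, 68.7% for this Adcy3 window and 66.3% for Slx1b, against a median of 61.3% over the windows of genes tested in silencing. A match is a description of letters and says nothing about binding.

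In the comparison that chose them, 9 of the 10 genes passed the filter on low counts and were among 1819 genes tested, and Plcg1 did not pass. Of the 9, 7 were higher in S45Y and 2, Slx1b and Taf5, were lower, and in all 9 the 3 S45Y libraries lay apart from the 3 eGFP libraries. No gene of the whole table was called at an adjusted p below 0.05 (percent called 0) by edgeR or by DESeq2. At an unadjusted p of 0.05 or less, 107 genes were called by edgeR, 5.88% of those tested (66 higher and 41 lower). DESeq2, run without that filter, called 166 of 12569 genes tested, a smaller share. The groups did not overlap for 10.9% of the genes tested by edgeR. Since these values chose the genes, they are a description and nothing is read from them. The 9 genes took places from 1 to 13 in the order of unadjusted p, with Appl2 first and Smtn at the last of these places. Mir6381, Rps15 and 2210016L21Rik were among the genes that ranked between them without being in the set. The log2 fold change was 1.47 (SE 0.49) for Smtn, the last gene inside, and 0.98 (SE 0.34) for Cables2, which followed it.

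**Figure D1:**
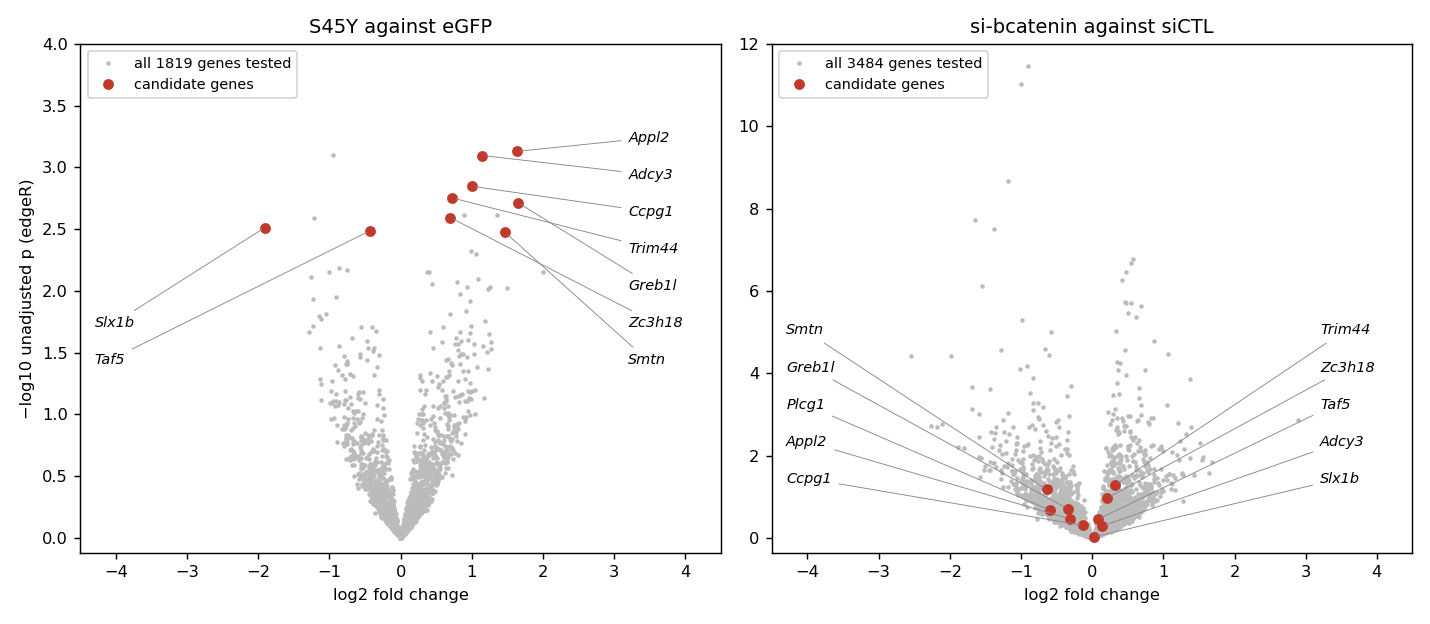
Each point is a gene, with the log2 fold change on the x axis and −log10 of the unadjusted edgeR p on the y axis, for S45Y against eGFP (left, 1819 genes) and si-bcatenin against siCTL (right, 3484 genes), with y axes of different height. The 9 candidate genes tested on the left sit at its top because they were chosen there, and all 10 lie low on the right, between log2 fold changes of −0.64 and 0.32.

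In silencing all 10 genes passed the filter, among 3484 genes tested. None of the 10 was called at an adjusted p below 0.05 by edgeR, and none had an unadjusted p of 0.05 or less (DESeq2 gave 0 of 10 at the unadjusted p and 0 of the 6 to which it gave an adjusted p, which it left out for Appl2, Smtn, Slx1b and Plcg1). The second count moved to 1 without the filter on low counts (Trim44), to 2 without siCTL replicate 3 (Trim44 and Taf5), and to 1 without si-bcatenin replicate 1 (Trim44), replicate 2 (Smtn) or replicate 3 (Zc3h18), and under none of these edgeR fits was any of the 10 called at an adjusted p below 0.05. Over all genes, 54 were called at an adjusted p below 0.05, 1.55% of those tested (28 higher and 26 lower), and 12.5% had an unadjusted p of 0.05 or less. Of the 10, 5 were lower in si-bcatenin, beside 50.3% of all genes tested. The median log2 fold change of the 10 genes was −0.050 beside −0.0033 over all genes, and the median size was 0.261 beside 0.258. The si-bcatenin and siCTL libraries did not overlap for 2 of the 10, Greb1l and Smtn, both lower in si-bcatenin, beside 17.8% of all genes in either direction. For a single gene the exact permutation test of 3 libraries against 3 cannot give a p below 0.1, and these were the 2 genes that reached it.

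Among the signaling genes, Appl2 encodes an adaptor protein of early endosomes that binds Rab5 and links membrane receptors to signaling in the cell. It lies on mm10 chromosome 10 from 83600033 to 83648738 on the minus strand, and none of its exons overlaps an exon on the opposite strand. Appl2 had 6, 10 and 7 counts with eGFP and 15, 20 and 26 with S45Y, so that all S45Y libraries exceeded all eGFP libraries although they were shallower or of like depth. On the scale of all 12 libraries the level was 73.9 ± 17.5 CPM (SD, n = 3) in eGFP and 224 ± 30.7 CPM in S45Y, with a log2 fold change of 1.63 (SE 0.46). In silencing, the counts were 23, 22 and 37 in siCTL and 19, 27 and 26 in si-bcatenin, and the groups overlapped. The levels were 107 ± 31.5 and 86.9 ± 13.5 CPM, and the log2 fold change was −0.31 (95% interval −0.97 to 0.35, edgeR adjusted p = 0.785, exact permutation p = 0.4). The sign was opposite to that in S45Y, but the interval held 0 and did not reach the mirror value of −1.63. Over the 4 groups, S45Y stood above the others, and eGFP, si-bcatenin and siCTL, in rising order, each overlapped the next.

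Adcy3 encodes a membrane adenylyl cyclase that makes cyclic AMP. The gene (chromosome 12, 4133103 to 4213525, plus strand) had 16, 26 and 17 counts with eGFP and 42, 41 and 25 with S45Y, or 189 ± 44.8 and 415 ± 154 CPM. Replicate 3 of S45Y, at 242 CPM, was only just above replicate 2 of eGFP, at 239 CPM. In siCTL the counts were 41, 56 and 64 and in si-bcatenin 62, 61 and 69, which overlapped in CPM (207 ± 24.4 and 232 ± 14.9 CPM). The direction in silencing was the same as in S45Y, not the reverse (log2 fold change 0.14, interval −0.30 to 0.58, edgeR adjusted p = 0.868, exact permutation p = 0.3, against 1.15 with an SE of 0.33 in activation). No 2 neighbouring groups in the order eGFP, siCTL, si-bcatenin, S45Y were apart. Exons of Cenpo, a centromere protein gene on the opposite strand, cover 1380 exon bases of Adcy3 (22.1%), and whether counting used strand is not given in the sources used here. Cenpo had a log2 fold change of −0.40 (SE 0.41) in activation and 0.47 in silencing (edgeR adjusted p = 0.327).

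Plcg1 encodes phospholipase C gamma 1, which cleaves a membrane lipid downstream of receptor tyrosine kinases. It was the lowest of the 10 genes per kilobase of exon (6.95 CPM per kb over all libraries) and lies on chromosome 2 from 160731300 to 160775760 on the plus strand. Its counts were 2, 4 and 1 counts with eGFP and 17, 6 and 10 with S45Y, or 22.0 ± 13.4 and 127 ± 78.5 CPM. The pooled 7 and 33 counts give a ratio per count of 5.48 (exact 95% interval 2.38 to 14.7, for counting error only), and a fit without the filter gave a log2 fold change of 2.43 (SE 0.72). Replicate 1 of S45Y, at 217 CPM, was more than the sum of the other two. With silencing the counts went from 13, 22 and 10 in siCTL to 8, 10 and 14 in si-bcatenin, which overlapped (57.9 ± 19.1 and 38.6 ± 10.3 CPM, log2 fold change −0.60, interval −1.54 to 0.35, edgeR adjusted p = 0.692, exact permutation p = 0.2). This interval was the widest of the 10. Opposite-strand exons of Zhx3 and Gm27206 cover 6.68% of its exon bases.

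**Figure D2:**
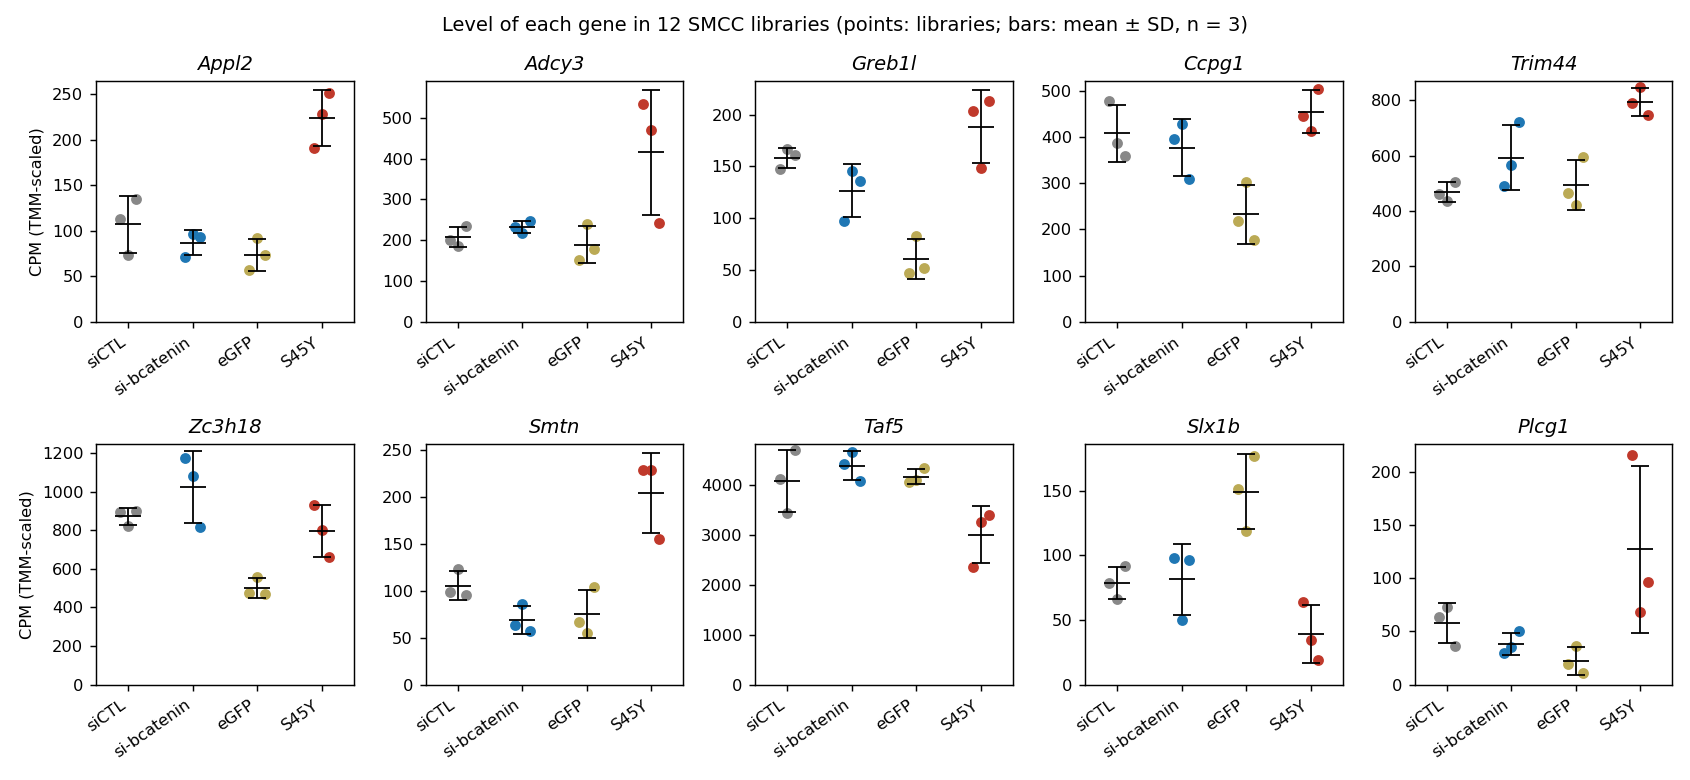
Level of each gene in CPM on the scale of all 12 libraries (y axis, starting at 0) in siCTL, si-bcatenin, eGFP and S45Y, with a point per library and bars for the mean ± SD (n = 3). S45Y lies apart from eGFP for the 9 genes tested there and for Plcg1, all of them chosen on that comparison, beside 10.9% of all genes tested. The si-bcatenin and siCTL libraries lie apart for Greb1l and Smtn alone, beside 17.8% of all genes tested.

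Among the nuclear genes, Taf5 encodes a subunit of TFIID, the complex that binds core promoters and starts assembly of the transcription machinery. It lies on chromosome 19 from 47067746 to 47083479 on the plus strand and was the most abundant of the 10 genes, with 8871 counts in all. Per kilobase of exon its mean level was 1071 CPM per kb, while the other TFIID subunits with the highest values were Taf6 at 301, Taf9b at 54.3 and Taf3 at 51.2 CPM per kb. Taf5 had 428, 445 and 415 counts with eGFP and 184, 284 and 351 with S45Y, or 4157 ± 152 and 2998 ± 572 CPM. All S45Y libraries were below all eGFP libraries, with replicate 1 lowest at 2344 CPM, and the log2 fold change was −0.43 (SE 0.14). In silencing the counts were 834, 1031 and 1280 in siCTL and 1173, 1308 and 1138 in si-bcatenin, and the groups overlapped at 4074 ± 626 and 4381 ± 294 CPM. Having the most counts, Taf5 also had the narrowest interval, and its log2 fold change of 0.084 (interval −0.096 to 0.26, edgeR adjusted p = 0.785, exact permutation p = 0.7) held 0 and not the mirror value of 0.43. Without siCTL replicate 2 the sign turned (−0.026).

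Slx1b encodes a structure-specific nuclease that works with the SLX4 scaffold on branched DNA. It lies on chromosome 7 from 126689468 to 126695784 on the minus strand and had 16, 13 and 17 counts with eGFP and 5, 3 and 2 with S45Y, or 149 ± 29.1 and 39.1 ± 22.5 CPM. The pooled 46 and 10 counts give a ratio per count of 0.253 (exact interval 0.114 to 0.508), and the log2 fold change of −1.91 (SE 0.62) was the largest in size among the 9 tested genes. The order over the groups was S45Y, siCTL, si-bcatenin and eGFP, with both ends apart from their neighbours, and the controls also stood apart from each other, with siCTL at 78.9 ± 12.5 CPM. In silencing the counts were 16, 20 and 25 in siCTL and 26, 14 and 27 in si-bcatenin. The log2 fold change was 0.025 (interval −0.71 to 0.76, edgeR adjusted p = 0.991, exact permutation p = 1), and the sign turned when siCTL replicate 2 (−0.094), si-bcatenin replicate 1 (−0.12) or si-bcatenin replicate 3 (−0.11) was left out. An opposite-strand gene, Bola2, shares 360 exon bases and had 6 counts in all libraries against 184 for Slx1b, and 219 bases are shared with a pseudogene on the same strand, Gm6939.

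Zc3h18 encodes a zinc finger protein that joins the nuclear cap-binding complex to RNA decay by the exosome. The gene (chromosome 8, 122376609 to 122417360, plus strand) had 50, 61 and 45 counts with eGFP and 73, 70 and 68 with S45Y, or 501 ± 51.1 and 797 ± 136 CPM, a log2 fold change of 0.70 (SE 0.22). In silencing it had 182, 247 and 246 counts in siCTL and 313, 303 and 228 in si-bcatenin, 873 ± 43.6 and 1024 ± 187 CPM, and the groups overlapped because replicate 3 of si-bcatenin was at 816 CPM. Zc3h18 was therefore on the higher side in both comparisons (silencing log2 fold change 0.21, interval −0.048 to 0.47, edgeR adjusted p = 0.536, exact permutation p = 0.4). Of the 4 groups eGFP was the lowest and apart from S45Y, while S45Y, siCTL and si-bcatenin overlapped in turn.

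Greb1l encodes a relative of Greb1 that has been tied to retinoic acid signaling in development. It had 5, 9 and 5 counts with eGFP and 16, 13 and 22 with S45Y, or 60.7 ± 19.1 and 189 ± 34.8 CPM, a log2 fold change of 1.65 (SE 0.51). In siCTL it had 30, 50 and 44 counts and in si-bcatenin 26, 41 and 38, and the 3 si-bcatenin levels of 97.8, 146.1 and 136 CPM all lay below the 3 siCTL levels of 147.6, 166.5 and 161 CPM. Replicate 2 of si-bcatenin and replicate 1 of siCTL were separated by less than 2 CPM. The log2 fold change of −0.34 was opposite in sign to that in S45Y, with an interval of −0.87 to 0.18 (edgeR adjusted p = 0.672, exact permutation p = 0.1, the smallest possible). In this gene the siCTL control, at 158 ± 9.73 CPM, was closer to S45Y than to eGFP.

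Smtn, which encodes the actin-binding protein smoothelin, had 7, 6 and 10 counts with eGFP and 18, 20 and 16 with S45Y, or 75.2 ± 25.8 and 204 ± 42.7 CPM. It lies on chromosome 11 from 3517523 to 3540612 on the minus strand. After silencing, counts of 20, 37 and 26 in siCTL stood beside 17, 24 and 16 in si-bcatenin, and the levels of 106 ± 15.3 and 68.9 ± 14.8 CPM did not overlap. The log2 fold change of −0.64 was the largest in size of the 10 genes in silencing (interval −1.32 to 0.045, edgeR adjusted p = 0.445, exact permutation p = 0.1, the smallest possible), against 1.47 in activation. Its interval held 0 and ended short of the mirror value of −1.47. Without si-bcatenin replicate 2 the log2 fold change was −0.82 with an interval of −1.62 to −0.015, which held the mirror value and not 0. Of the 4 groups, S45Y lay above the rest without overlap and si-bcatenin was the lowest but overlapped eGFP. Exons of Gm11946 and Gm11947 on the opposite strand cover 16.3% of the exon bases, and neither has counts of its own in the table.

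Ccpg1 encodes a receptor for autophagy of the endoplasmic reticulum, and lies on chromosome 9 from 72985429 to 73016340 on the plus strand. Its counts of 23, 33 and 17 counts with eGFP and 35, 36 and 52 with S45Y correspond to 233 ± 64.1 and 454 ± 46.5 CPM, a log2 fold change of 0.998 (SE 0.30). In silencing 97, 116 and 98 counts in siCTL and 105, 120 and 86 in si-bcatenin gave 407 ± 62.0 and 377 ± 61.8 CPM, which overlapped. The log2 fold change was −0.12 (interval −0.49 to 0.24, edgeR adjusted p = 0.858, exact permutation p = 0.6), and it turned to 0.011 without siCTL replicate 1 and to 0.010 without si-bcatenin replicate 3. In Ccpg1 eGFP was apart from and below all other groups, and si-bcatenin, siCTL and S45Y overlapped in turn. Pigb on the opposite strand covers 28.9% of its exon bases, the largest such share of the 10 genes, with 187 counts of its own against 818. Pigb had 19 counts in eGFP and 32 in S45Y, and was not tested in activation. In silencing it had 77 in siCTL and 59 in si-bcatenin (log2 fold change −0.51, edgeR adjusted p = 0.653). Both directions were those of Ccpg1, and the part of Pigb in the Ccpg1 values was not tested. On the same strand, Gm44503, a gene annotated as protein coding that has no counts of its own in the table, shares 3213 of the 7497 exon bases of Ccpg1.

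Trim44 encodes a member of the TRIM family that is known to act on protein ubiquitination. It lies on chromosome 2 from 102300119 to 102407828 on the minus strand and had 49, 46 and 57 counts with eGFP and 62, 74 and 77 with S45Y, or 494 ± 90.0 and 794 ± 50.4 CPM. In silencing it had 94, 131 and 138 counts in siCTL and 130, 159 and 201 in si-bcatenin, and the groups overlapped at 468 ± 34.8 and 592 ± 117 CPM. Trim44 had the smallest adjusted p of the 10 genes in silencing, with a direction that was the same as in S45Y (log2 fold change 0.32, interval −0.0030 to 0.64, edgeR adjusted p = 0.402, exact permutation p = 0.2, against 0.73 with an SE of 0.22 in activation). S45Y was apart from and above the other groups, among which siCTL, eGFP and si-bcatenin, in rising order, overlapped.

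Set side by side, 6 of the 9 genes tested in both comparisons had opposite signs. These were 4 of the 7 that were higher in S45Y (Appl2, Greb1l, Ccpg1 and Smtn) and both that were lower (Taf5 and Slx1b). Over all 1804 genes tested in both, 53.5% had opposite signs, and over the 96 other genes with an unadjusted p of 0.05 or less in activation, 58.3%. The count of 6 fell to 4 without siCTL replicate 2 or without si-bcatenin replicate 3. It was 5 with the replicate block, without siCTL replicate 1 or without si-bcatenin replicate 1. The 95% interval in silencing held 0 for 10 of 10 genes and held the mirror image of the activation value for 0 of 9. When the activation interval was mirrored as well, it overlapped the silencing interval for 6 of 9, the exceptions being Adcy3, Trim44 and Zc3h18, whose silencing values were on the same side as in S45Y. The counts of intervals that held 0 and that held the mirror image both changed when si-bcatenin replicate 2 was left out, since the interval of Smtn then held its mirror value and not 0. The intervals that held 0 were 8 of 10 without siCTL replicate 3, where those of Trim44 and Taf5 lay above 0, and 9 of 10 without si-bcatenin replicate 1 (Trim44) or replicate 3 (Zc3h18) and without the filter (Trim44). The activation values come from the comparison that chose the genes, which favors large values, so the mirror counts are a description and no test of whether silencing reverses them.

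**Figure D3:**
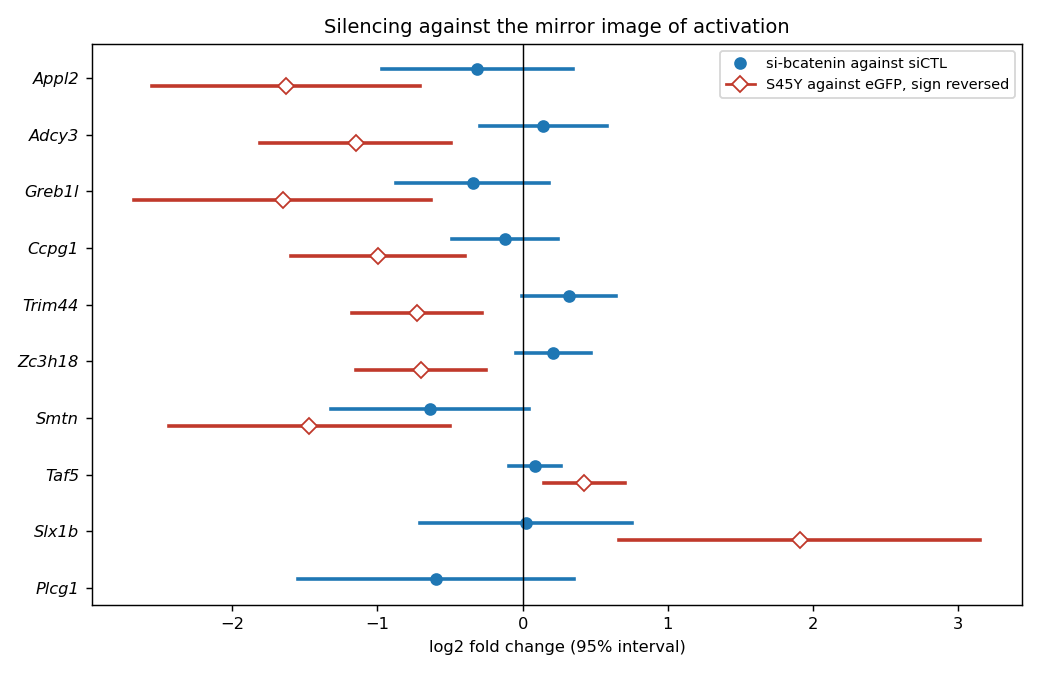
Log2 fold change (x axis) with its 95% interval for each gene in silencing (circles) and in activation with the sign reversed (diamonds, 9 genes). All 10 silencing intervals cross 0, and none of the 9 with a mirrored value reaches that value. The silencing interval and the mirrored activation interval overlap for 6 of these 9 genes. The activation values come from the comparison that chose the genes, which favors large values.

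Genes known to work with the 10 were read from the same fits, in 11 lists with 188 gene symbols in the table. Of these, 50 were tested in silencing and 23 in activation, and 0 passed an adjusted p below 0.05 in either by edgeR, beside 1.55% of all genes in silencing and none in activation. At an unadjusted p of 0.05 or less there were 2 higher and 4 lower genes in silencing and 3 higher and 0 lower in activation, beside 12.5% and 5.88% of all genes tested in either direction.

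For Appl2, 4 of 15 genes of the APPL and RAB5 endosome were tested in silencing, with a median log2 fold change of −0.62 beside −0.0033 over all genes. Eea1, a Rab5 effector that tethers endosomes, had −1.06 (SE 0.34, edgeR adjusted p = 0.108), and Ankfy1, another Rab5 effector, had −1.20 (SE 0.49, adjusted p = 0.260). The other two went different ways, Rab5a itself, the GTPase that Appl2 binds, at 0.78 (SE 0.45, edgeR adjusted p = 0.506) and Rabep1 at −0.18 (SE 0.44), and both were named after their values were seen. For Adcy3, 5 of 23 genes of cyclic AMP signaling were tested, with a median of −0.12. Gnas, the stimulatory G protein subunit, was at −0.03 (SE 0.16) and Adcy7, a related cyclase, at −0.39 (SE 0.25). For Plcg1, 4 of 19 genes of the phospholipase C pathway were tested, with a median of −0.46, and Plcb3, another phospholipase C, was at −0.44 (SE 0.32) and the calcium channel Itpr3 at −0.13 (SE 0.41).

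For Taf5, 7 of 16 other TFIID subunits were tested in silencing, with a median of −0.014. Taf3, which reads a histone mark of active promoters, was at −0.63 in silencing (SE 0.20, edgeR adjusted p = 0.105) and at 0.66 in activation (SE 0.31, adjusted p = 0.802). Taf6, which pairs with Taf9 in the complex, was at 0.29 (SE 0.11, adjusted p = 0.204) and 0.19 (SE 0.16). For Zc3h18, 5 of 11 listed cap-binding and exosome-targeting genes in the table were tested, with a median of 0.25, including Srrt at 0.33 (SE 0.27) and Skiv2l2 at 0.25 (SE 0.26). For Slx1b, 4 of 11 genes of the SLX4 complex were tested, with a median of 0.22, and Ercc1, a nuclease subunit of DNA repair, was at 0.60 (SE 0.19, edgeR adjusted p = 0.108) while Eme1 was at 0.06 (SE 0.08). In activation, Mus81, the nuclease partner of Eme1, was at 1.16 (SE 0.52, adjusted p = 0.792). Of 11 retinoic acid and oestrogen receptor genes, listed for Greb1l, 1 was tested, Rarb at −0.49 (SE 0.52).

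For Ccpg1, 3 of 13 ER-phagy genes were tested in silencing, among them the receptors Sec62 at 0.24 (SE 0.25) and Atl3 at 0.72 (SE 0.41). For Smtn, 6 of 17 genes of the actin contractile apparatus were tested, with a median of −0.18, including caldesmon (Cald1) at −0.26 (SE 0.14) and Tpm4 at 0.04 (SE 0.21), and in activation Tpm1 was at 0.995 (SE 0.42, edgeR adjusted p = 0.792). For Trim44, 8 of 28 genes of the TRIM family were tested, with a median of −0.29, including Trim41 at −0.09 (SE 0.16) and Trim2 at −0.50 (SE 0.29). Of 24 target genes of TCF/LEF factors, 11 had no count in any library and 3 were tested in silencing. Ccnd1, which encodes cyclin D1, was at −0.47 in silencing (SE 0.20, edgeR adjusted p = 0.278) and −0.23 in activation (SE 0.28), and Fosl1, an AP-1 subunit, was at 0.06 (SE 0.27) and 0.32 (SE 0.45).

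Likeness of pattern was described by Pearson's r of log2 CPM across the 12 libraries, which share depth and reagent within each pair of groups, among 1803 genes tested in both comparisons and other than the gene itself. The genes most like Appl2 were 9430091E24Rik (0.838), Mus81 (0.817), Ap3b1 (0.812), 4930486I03Rik (0.796) and Rps15 (0.792), and those most like Slx1b included Tor1aip2 (0.841) and Capn7 (0.753). The 12 libraries include the 6 that chose Appl2 and Slx1b, so genes that differ between S45Y and eGFP can rank high for that reason alone, and these values are a description.

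Over 13 alternatives of processing or of leaving out a library, none of the 10 genes was called in silencing, with DESeq2 giving an adjusted p for 6 of them only. The log2 fold change in silencing kept one sign for Appl2 (−0.54 to −0.09), Greb1l (−0.45 to −0.18), Smtn (−0.82 to −0.51) and Plcg1 (−0.85 to −0.37), all lower in si-bcatenin. It likewise kept one sign for Adcy3 (0.07 to 0.24), Trim44 (0.16 to 0.45) and Zc3h18 (0.11 to 0.36), all higher. The smallest adjusted p over the alternatives was 0.255, for Trim44.

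**Figure D4:**
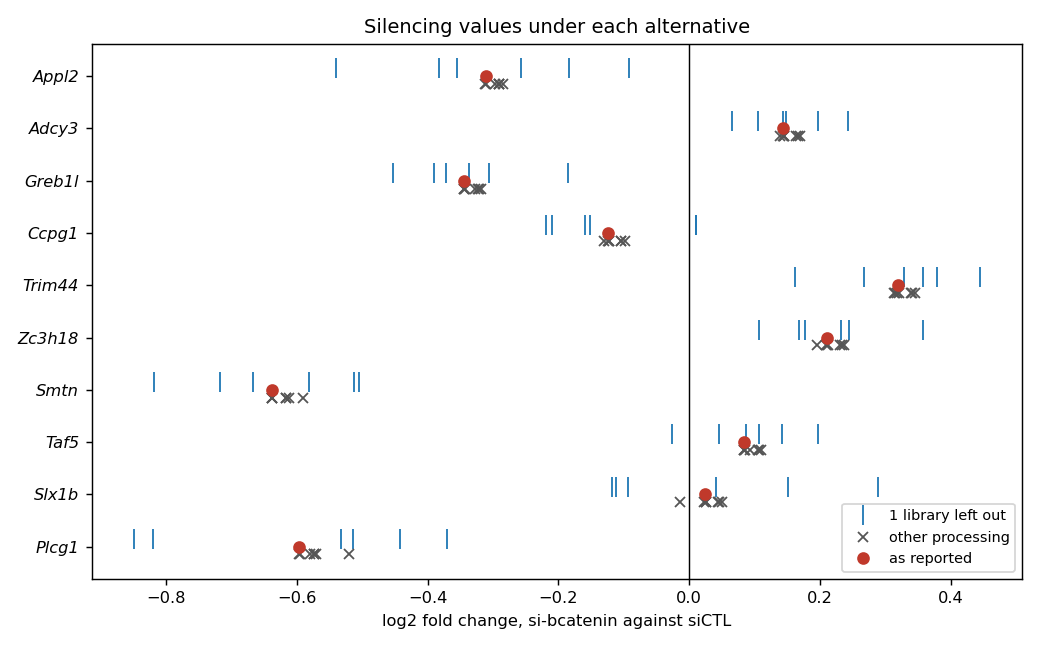
Log2 fold change of each gene in si-bcatenin against siCTL (x axis) as reported (circles), under other processing (crosses) and with 1 library left out (vertical marks). Ccpg1, Taf5 and Slx1b have marks on both sides of 0, and the other 7 genes stay on one side.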

How the data were processed

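RNA of SMCCs was sequenced in 12 libraries. Per the labels and the methods of the study, the authors trimmed reads with Trimmomatic 0.38, aligned them to mm10 with HISAT2 2.1.0 and counted them per gene with HTSeq 0.11.2. The deposited values are these counts, whole numbers without normalization. Annotation, strand setting and read type are not given in the sources used here. The comparisons, si-bcatenin against siCTL and S45Y against eGFP, were fitted on 6 libraries each with edgeR 4.0.16 in R 4.3.3 (filterByExpr with minimum count 10 and minimum total 15, TMM, quasi-likelihood test with prior count 0.125, Benjamini-Hochberg adjustment over all genes tested). Intervals of 95% come from the quasi-likelihood fit. Log2 CPM for the two-sided exact permutation tests and for correlations used a prior count of 2. Single-gene count ratios have exact conditional intervals, which cover counting error only, as reads without molecular identifiers are not independent molecules. CPM values in the text are on a TMM scale of all 12 libraries, and values per kilobase are unscaled CPM over the union of exons.

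Totals of 91468 to 326686 counts limit precision for genes of few counts. Positions and exon overlaps come from GENCODE M21 (mm10). Promoter windows come from RefSeq. The 10 genes, the gene lists and the tests were chosen with earlier results of these data known. Named besides the 10 were Ctnnb1, list genes with an adjusted p below 0.05, up to 2 genes of the highest mean CPM per list, genes sharing exon bases with the 10, the genes nearest to them in rank, and the 5 and 3 genes most like Appl2 and Slx1b. Mus81, Tpm1, Rab5a, Rabep1 and Taf9b among the lists, the cell type markers named, and genes ranked between the 10, were named after their values were seen. Some genes that this rule names are not reported here. Alternatives were DESeq2 1.42.0, RLE size factors, no filter on low counts, a prior count of 2, leaving out Rn45s, one fit of 12 libraries, the replicate number as a block, and leaving out single libraries. Scripts were tested on simulated data with known changes, placed in well-counted genes only, so this does not cover genes of few counts.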

Additional observations from a re-analysis of the deposited data

How the results depend on the processing

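Of 130 silencing values of the 10 genes under the alternatives, 123 kept their sign and 7 reversed. Of the 117 activation values of 9 genes, 0 reversed. These 9 genes were chosen on activation, where their groups lie apart, so a reversal there was unlikely from the start. The counts therefore do not show that activation is the steadier comparison. With libraries left out in turn, the silencing values ranged from −0.22 to 0.011 for Ccpg1, from −0.12 to 0.29 for Slx1b and from −0.026 to 0.20 for Taf5. The number of genes called in silencing was 54, and 31 to 49 with a library left out, the lowest being 34 without siCTL replicate 1, 31 without si-bcatenin replicate 2 and 32 without si-bcatenin replicate 3. It was 51 with RLE size factors, 48 with DESeq2, 52 without a filter, 57 without Rn45s and 38 in one fit of 12 libraries. The cause of these changes was not tested. The labels do not state what the replicate numbers mean. Deviations of same-numbered libraries had correlations from −0.0507 to 0.0142 in silencing and from −0.0021 to 0.0271 in activation. Unlike-numbered libraries had values of like size, such as 0.046 for siCTL replicate 2 and si-bcatenin replicate 3. At these depths counting noise can hide a shared batch, so these values cannot decide whether libraries were paired. With the replicate block, 64 genes were called in silencing, none of the 10 among them, and Slx1b was at −0.015. No gene was called in activation under any of the alternatives run. Depth limits the genes of few counts most, above all Plcg1 with 7 counts in eGFP and Slx1b with 10 in S45Y.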
